A study of Mus musculus with 2 samples.

Results

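Retinoic acid synthesis, binding and breakdown genes of the mouse fetal ovary were described in germ and somatic cells at E15.5. The 9 genes were Aldh1a1, Aldh1a2, Aldh1a3, Cyp26a1, Cyp26b1, Crabp1, Crabp2, Rara and Rarb, chosen by symbol as known parts of the pathway and all found among the 27998 genes counted. Single-cell RNA-sequencing had been performed on 1 library of ovaries with homozygous deletion of the glucocorticoid receptor (GR, encoded by Nr3c1), called KO, and 1 library of wildtype ovaries, called WT. The KO pool held ovaries of 2 embryos and the WT pool those of 4 embryos, all collected at E15.5. The deletion allele came from the floxed strain Nr3c1tm1.1Jda crossed to mice with Cre under the β-actin promoter, which is active throughout the embryo, so germ and somatic cells of the KO pool both carried it. Both groups carried the OCT4-GFP transgene Tg(Pou5f1-EGFP)2Mnn, which labels germ cells, and sorted germ and somatic cells were mixed at 60 to 40 before capture. With 1 library per genotype no test across replicates was possible, and every interval given is a 95% interval for counting error only. Genotype, embryo pool, sort and capture cannot be told apart in any difference between KO and WT.

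Retinoic acid is made from vitamin A by successive oxidation steps, and the ALDH1A enzymes carry out the last, which is irreversible. CRABP proteins bind it in the cytosol, CYP26 enzymes oxidise it to forms that are cleared, and the nuclear receptors RARα and RARβ switch target genes when it is bound. In the fetal ovary the pathway is best known for its link to Stra8, a gene that germ cells switch on as they enter meiosis. CYP26B1 is best known from the fetal testis, where it keeps germ cells from retinoic acid.

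The deposited libraries held 11430 WT and 17829 KO cell barcodes, and 9045 WT and 15502 KO cells were kept. A kept WT cell had a median of 15685 unique molecular identifiers (UMIs), and a kept KO cell a median of 10194.5. Cells were grouped by clustering without the 9 genes and without other genes of the pathway, and were named from marker genes as germ-like (6790 WT and 10206 KO cells), pregranulosa-like (934 and 2042), stroma-like (847 and 1942) and epithelium-like (398 and 1072). Endothelium-, immune- and erythroid-like cells numbered 15 to 31 in WT and 50 to 136 in KO. At least a 3-fold higher level than in the other classes was found for 10 of 10 germ markers, 9 of 12 stroma markers and 8 of 10 epithelium markers, but for only 3 of 12 pregranulosa markers (Foxl2, Fst and Irx3). A Gng13-high group within the epithelium-like class was higher than the rest of that class for 9 of 12 pregranulosa markers. Nr3c1, the deleted gene, was lower in KO in all 4 main classes. Its level in germ-like cells was 71.9 CPM (UMIs of the gene per 1000000 UMIs of the class) in WT and 11.6 CPM in KO, and in the somatic classes it was 26.1 to 44.9 CPM in WT and 6.24 to 11.9 CPM in KO. The median germ marker stood at 37.5% of its germ-like level in WT erythroid-like cells and 53.2% in KO ones, at 1.92% and 23.1% in endothelium-like cells and at 1.76% and 14.9% in immune-like cells. Of the erythroid-like cells, 7 of 15 in WT and 41 of 54 in KO held markers of another class, and free RNA and doublets as the source of these values were not tested. Doublets were called in 2.60% of WT and 6.60% of KO cells, and 27 barcodes were kept in both libraries.

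The 9 genes lie on 7 chromosomes of the GRCm38 genome, and each is annotated as protein coding. The synthesis genes are Aldh1a1 (ENSMUSG00000053279, chr19:20492715-20643465, plus strand), Aldh1a2 (ENSMUSG00000013584, chr9:71215789-71296243, plus strand) and Aldh1a3 (ENSMUSG00000015134, chr7:66390890-66427517, minus strand). The binding protein genes are Crabp1 (ENSMUSG00000032291, chr9:54764748-54773110, plus strand) and Crabp2 (ENSMUSG00000004885, chr3:87948666-87953376, plus strand). The breakdown genes are Cyp26a1 (ENSMUSG00000024987, chr19:37697798-37701536, plus strand) and Cyp26b1 (ENSMUSG00000063415, chr6:84571414-84593908, minus strand). The receptor genes are Rara (ENSMUSG00000037992, chr11:98927818-98974942, plus strand) and Rarb (ENSMUSG00000017491, chr14:16430839-16819156, minus strand).

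RARs bind DNA with an RXR partner at direct repeats, and the repeat with a spacer of 5 bases, called DR5, is their best known element. RefSeq promoter windows on GRCm38.p6, from 250 bases before to 50 bases after a gene's start, were found for 7 of the 9 genes, in 11 windows. A DR5 was searched on both strands as any pair, spaced by 5 bases, of the element AGGTCA, its variant AGTTCA, the element GGGTCA or its variant GGTTCA. It was found in 2 of the 11 windows, those of Cyp26a1 and Rarb, and in 32 of all 32851 promoter windows (0.0974%). Of 51 windows found for 34 of 47 further genes of the pathway, 0 held one. Both windows are printed 5′ to 3′ on the strand of the gene because they hold the only matches, with the elements in capitals.
Cyp26a1 (chr19:37697558-37697857, plus strand): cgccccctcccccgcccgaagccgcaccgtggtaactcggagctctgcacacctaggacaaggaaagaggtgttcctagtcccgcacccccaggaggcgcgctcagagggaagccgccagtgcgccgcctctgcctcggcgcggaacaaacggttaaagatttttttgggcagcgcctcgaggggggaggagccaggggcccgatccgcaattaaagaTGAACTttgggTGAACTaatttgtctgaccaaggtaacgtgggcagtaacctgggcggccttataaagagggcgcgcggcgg
Rarb (chr14:16575427-16575726, minus strand): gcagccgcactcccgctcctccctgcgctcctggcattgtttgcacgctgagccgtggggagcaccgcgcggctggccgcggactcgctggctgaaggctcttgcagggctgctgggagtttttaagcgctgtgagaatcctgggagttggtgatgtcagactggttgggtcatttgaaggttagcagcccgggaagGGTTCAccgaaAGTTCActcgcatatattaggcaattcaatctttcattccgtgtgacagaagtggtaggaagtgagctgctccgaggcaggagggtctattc
The match in the Cyp26a1 window lay on the other strand, at positions -32 to -16 from the start, and that in the Rarb window on the strand of the gene, at -53 to -37. The Rarb window lies inside the annotated gene, at an internal start and not at the outermost one, and its positions are counted from that internal start. A match of letters is not evidence of binding, and the levels of both genes are described with those of their families.

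Aldh1a1, which encodes a retinaldehyde dehydrogenase, had its highest level in pregranulosa-like cells, the supporting cells of the fetal ovary. Its level there was 197 CPM in WT (interval 190 to 205, 2490 UMIs) and 219 CPM in KO (212 to 226, 4282 UMIs). Epithelium-like cells held 78.8 CPM in WT and 56.7 CPM in KO, and stroma-like cells 8.56 and 9.0 CPM. Both libraries gave the order pregranulosa, epithelium, stroma and germ, and each neighbour in it differed beyond counting error. In germ-like cells the level was 1.55 CPM in WT and 1.99 CPM in KO, which is 0.787% and 0.908% of the pregranulosa-like level. Pregranulosa markers stood at a median of 1.21% and 0.691% of their own level in the same cells, and the part of carried-over RNA in the germ-like Aldh1a1 level was not tested. In stroma-like cells, 72 of 85 WT UMIs and 90 of 141 KO UMIs came from a small mixed group of cells that also carried pregranulosa markers. The step from stroma-like to germ-like cells in the order above therefore leans on these mixed cells, most of all in WT.

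Within the pregranulosa-like class Aldh1a1 was uneven. Among the groups that clustering of this class gave were a Folr1-high group (566 WT and 1217 KO cells) with 246 and 312 CPM, and a small Pax8-high group (33 and 60 cells) with 65.2 and 35.8 CPM. The Folr1-high group was 3.77-fold above the Pax8-high group in WT (log2 ratio 1.92, interval 1.38 to 2.51) and 8.72-fold above it in KO (3.12, 2.44 to 3.91). After each cell had been thinned to 3000 UMIs, 45.6% of WT and 52.6% of KO cells of the Folr1-high group had a UMI of Aldh1a1, against 18.2% and 3.33% of the Pax8-high group. In erythroid-like cells, which should lack the gene, 0 of 15 WT cells and 1 of 54 KO cells had one after thinning, with median depths before thinning of 26048 and 17287.5 UMIs. The 0 in WT allows a share of up to 21.8% by the exact binomial interval, so only the KO background is well bounded, at 1.85% (interval 0.0469% to 9.89%).

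**Figure D1:**
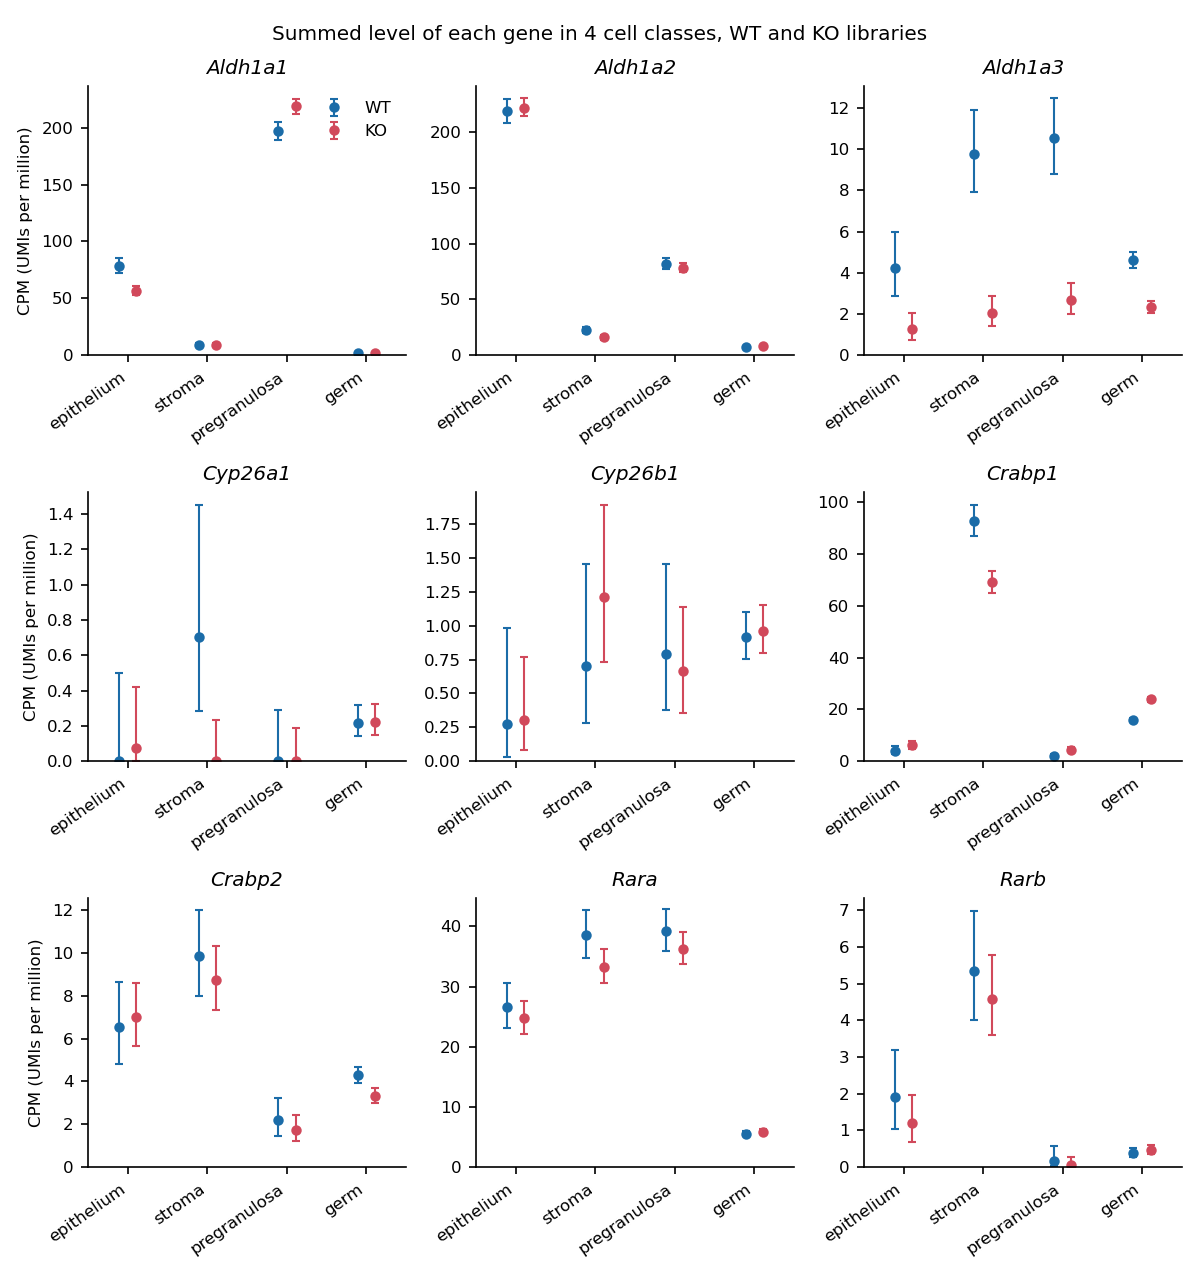
Level of each of the 9 genes in the 4 main classes of each library, in CPM with 95% counting intervals, each panel with its own linear axis from 0. Aldh1a1 is highest in pregranulosa-like cells (197 CPM in WT and 219 CPM in KO), Aldh1a2 in epithelium-like cells (218 and 222 CPM) and Crabp1 in stroma-like cells (92.9 and 69.0 CPM).

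Aldh1a2, the dehydrogenase that makes most retinoic acid in the early embryo, was highest in epithelium-like cells, the class named from epithelium markers. Of this class, 248 of 398 WT and 622 of 1072 KO cells belonged to the Gng13-high group that was also raised for pregranulosa markers. The level was 218 CPM in WT (208 to 229) and 222 CPM in KO (214 to 230), so the libraries overlapped. Pregranulosa-like cells held 82.0 and 78.5 CPM, and stroma-like cells 22.4 and 15.8 CPM. The order epithelium, pregranulosa, stroma and germ was the same in both libraries and every step exceeded counting error. Aldh1a2 in pregranulosa-like cells stood at 37.6% (WT) and 35.4% (KO) of its epithelium-like level. Epithelium markers there had a median of 7.83% in WT (0.725% to 18.3% over 8 markers) and 14.8% in KO (0.843% to 37.7%), and the part of carried-over RNA was not tested. In germ-like cells the level of 7.18 CPM in WT and 8.40 CPM in KO was 3.29% and 3.79% of the epithelium-like level. Epithelium markers there had a median of 0.748% in WT (0.0973% to 5.65% over 8 markers) and 0.601% in KO (0.295% to 17.0%), so Aldh1a2 lay within their range. Pregranulosa markers stood at 1.21% and 0.691% of theirs, and the part of carried-over RNA in the germ-like level was not tested.

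Aldh1a1 and Aldh1a2 therefore had opposite orders in the pair of somatic classes that expressed both. Aldh1a1 was lower in epithelium-like than in pregranulosa-like cells, by a log2 ratio of -1.32 in WT (-1.46 to -1.19) and -1.95 in KO (-2.06 to -1.84). Aldh1a2 was higher in epithelium-like cells, by 1.41 in WT (1.30 to 1.53) and 1.5 in KO (1.41 to 1.59). The median of all genes in this comparison lay at -0.16 in WT and -0.13 in KO. Cycling epithelium-like cells with S phase genes (48 WT and 177 KO cells) kept the Aldh1a2 level, at 264 and 268 CPM. Within the pregranulosa-like class, Aldh1a2 held 77.0 CPM in WT and 88.6 CPM in KO in the Folr1-high group and 86.1 and 77.8 CPM in the Pax8-high group, which did not differ beyond counting error in either library (log2 ratio -0.16, -0.64 to 0.36, and 0.19, -0.29 to 0.70).

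Aldh1a3, the remaining retinaldehyde dehydrogenase, was sparse and was carried by few cells. It gave 817 UMIs in 301 WT cells and 384 UMIs in 211 KO cells. In WT, 30 cells with at least 5 UMIs held 487 of the 817 UMIs (59.6%), and in KO 12 such cells held 143 of 384 (37.2%). The highest WT cell had 87 UMIs of Aldh1a3 and the highest KO cell 34. Of the 30 WT cells, 19 were germ-like and 11 somatic, whereas all 12 KO cells were germ-like and 0 somatic KO cells had 5 or more UMIs. By comparison, 1 cell in each library reached 5 UMIs of Rara, a gene with more UMIs in total.

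The level of Aldh1a3 was 10.5 CPM in WT pregranulosa-like cells and 2.66 CPM in KO ones, 9.77 and 2.04 CPM in stroma-like cells, 4.22 and 1.28 CPM in epithelium-like cells, and 4.61 and 2.32 CPM in germ-like cells. WT was the higher library in all 4 classes. The highest levels were in the Pax8-high pregranulosa group, with 90.8 CPM in WT (64.5 to 124, 39 UMIs) and 25.2 CPM in KO (13 to 44.1, 12 UMIs). The log2 ratio of the Folr1-high over the Pax8-high group was -3.60 in WT (-4.20 to -2.97) and -3.57 in KO (-4.65 to -2.43). A UMI of Aldh1a3 was found in 21.2% of its WT cells (8.98% to 38.9%) and 8.33% of its KO cells (2.76% to 18.4%) after thinning, against 1.59% and 0.575% in the Folr1-high group. The Pax8-high group was raised for 1 of 5 markers of mesonephros or rete, Pax8 itself, and was left without a cell type name. These markers summed to 256 CPM in WT and 263 CPM in KO, with 1 and 2 of the 5 at 0, and the 3 Sertoli markers to 65.2 and 44.2 CPM, with 1 and 2 at 0. No UMI of Aldh1a3 was found in endothelium-, immune- or erythroid-like cells, which allows at most 2.15 CPM in the deepest of these, KO endothelium-like cells.

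**Figure D2:**
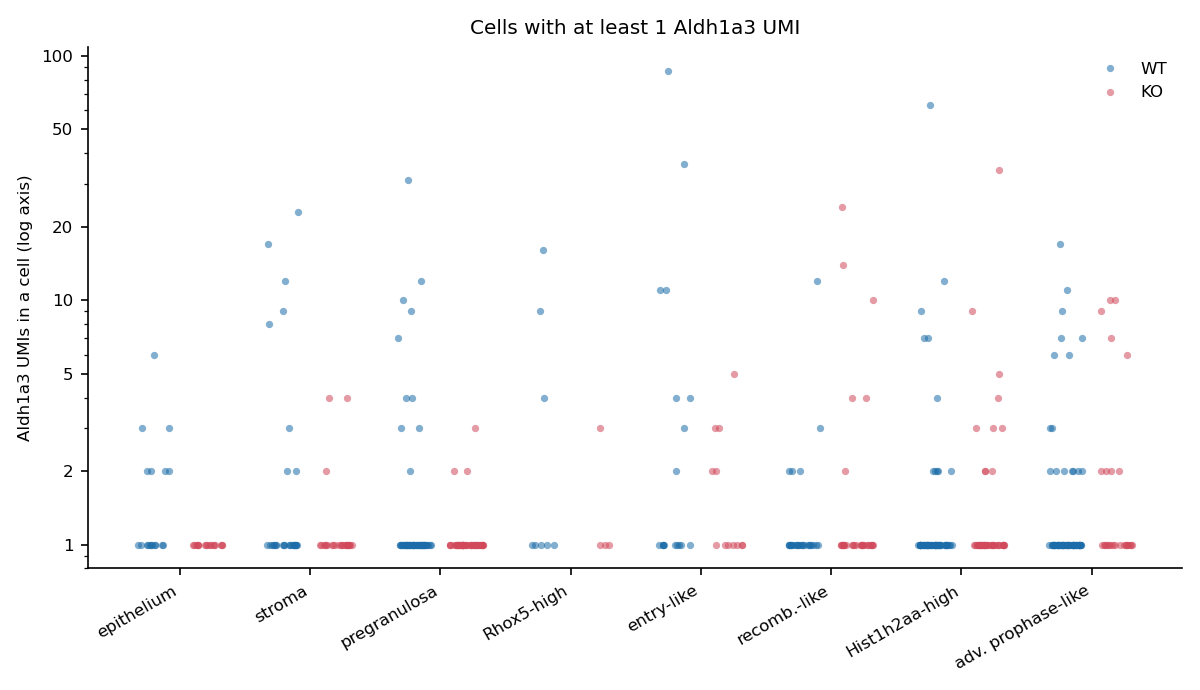
UMIs of Aldh1a3 in each cell that had any, by library and by class or germ stage, on a log axis, each point being 1 cell. The highest WT cell has 87 UMIs and the highest KO cell 34, and 30 WT and 12 KO cells have 5 or more.

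Crabp1, a cytosolic retinoic acid binding protein, was highest in stroma-like cells among the 4 classes, with 92.9 CPM in WT (87.0 to 99.1) and 69.0 CPM in KO (65.0 to 73.3). Germ-like cells followed with 15.9 and 23.9 CPM, and epithelium-like cells (3.95 and 6.10 CPM) and pregranulosa-like cells (1.98 and 4.40 CPM) were low. The germ-like level was 17.1% and 34.6% of the stroma-like level, while stroma markers in germ-like cells stood at 0.349% and 0.550% of theirs. Within the stroma-like class the WT level was 125 CPM in cycling cells (163 cells) and 152 CPM in a group high in perivascular markers (125 cells). In KO it was 105 CPM in cycling cells (351 cells) and 84.5 CPM in the group high in perivascular markers (214 cells).

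Crabp2, the binding protein that hands retinoic acid to RAR, had a narrower pattern in the stroma. The level over all stroma-like cells was 9.87 CPM in WT and 8.74 CPM in KO, but the group high in perivascular markers held 46.6 CPM in WT (35.4 to 60.1) and 43.3 CPM in KO (33.0 to 55.9), against 9.03 and 9.58 CPM in cycling stroma-like cells. This was a 5.16-fold difference in WT (log2 ratio 2.37, 1.60 to 3.20) and a 4.52-fold difference in KO (2.18, 1.51 to 2.87). Epithelium-like cells held 6.53 and 7.01 CPM, germ-like cells 4.29 and 3.33 CPM, and pregranulosa-like cells 2.22 and 1.74 CPM. Stroma and epithelium differed beyond counting error in WT but not in KO. Without the mixed groups of cells, those with over 25% called doublets, Crabp2 was lower in epithelium-like than in stroma-like cells in both libraries, by a log2 ratio of -1.53 in WT and -1.39 in KO, where all cells gave -0.60 and -0.32.

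**Figure D3:**
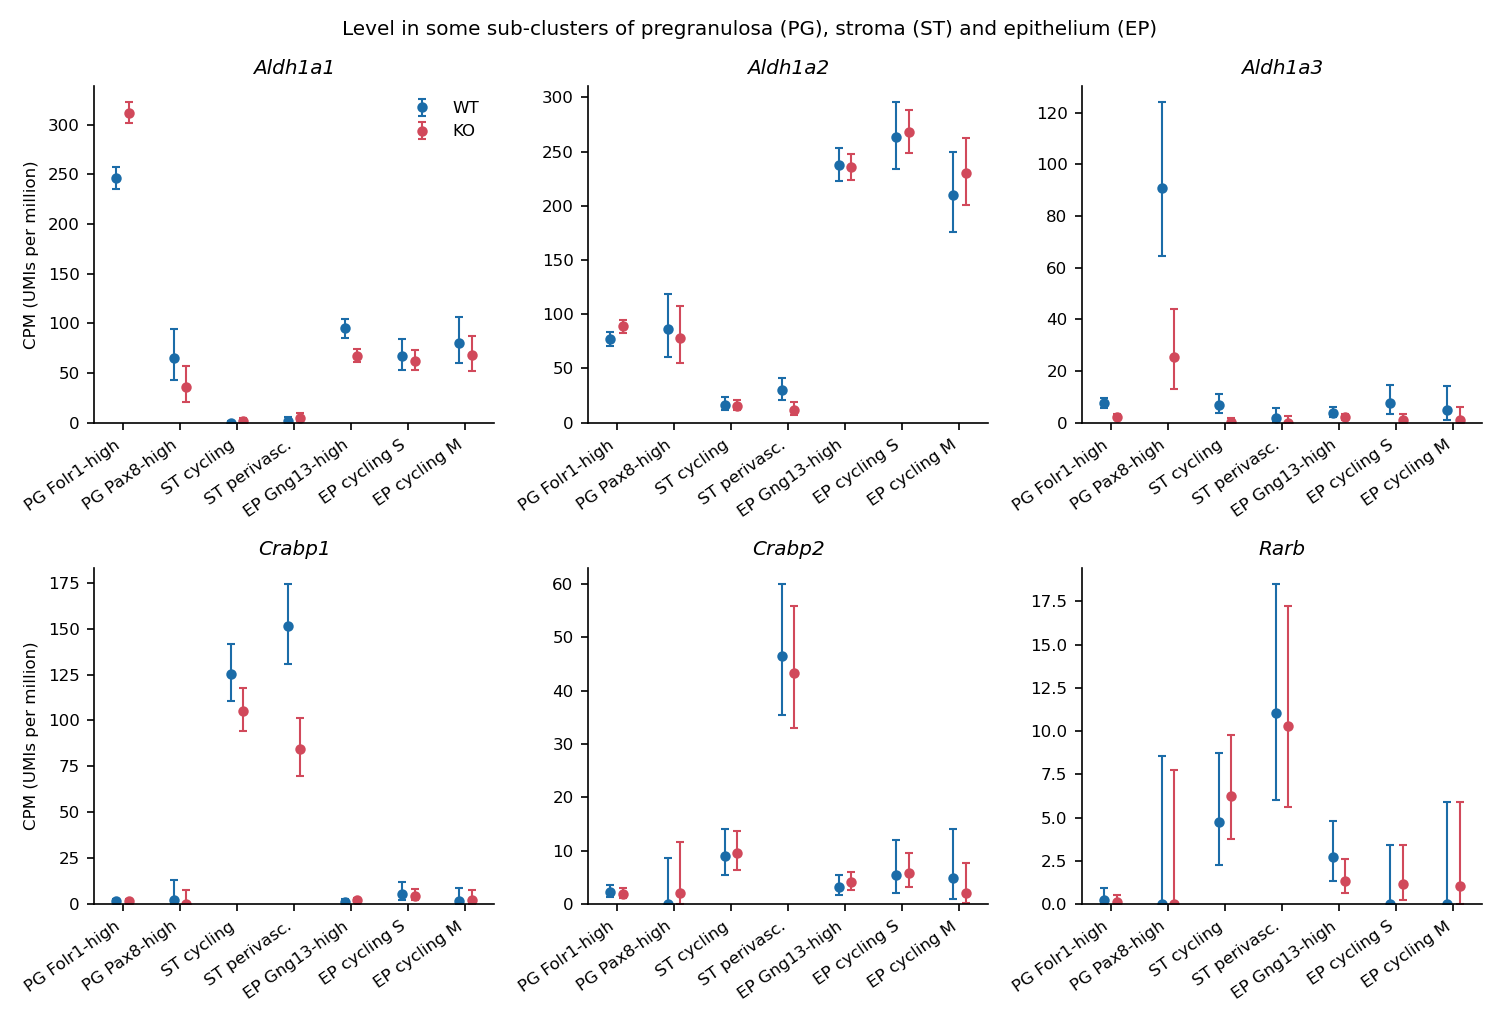
Level of 6 of the 9 genes in some groups within the pregranulosa- (PG), stroma- (ST) and epithelium-like (EP) classes of each library, in CPM with 95% counting intervals. Aldh1a3 stands out in the Pax8-high pregranulosa group (90.8 CPM in WT and 25.2 CPM in KO) and Crabp2 in the stroma group high in perivascular markers (46.6 and 43.3 CPM).

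The breakdown genes were at the limit of detection. Cyp26a1 gave 33 UMIs in WT and 28 in KO over all cells. Of these, 26 and 27 lay in germ-like cells, at 0.216 and 0.222 CPM. Pregranulosa-like cells had 0 UMIs in both libraries, which allows at most 0.238 CPM in WT and 0.153 CPM in KO, and stroma-like cells had 7 UMIs in WT and 0 in KO. Among germ stages the only level separated from its neighbour was 1.04 CPM (0.521 to 1.87, 11 UMIs) in the Rhox5-high stage of KO.

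Cyp26b1 gave 130 UMIs in WT and 156 in KO, of which 110 and 117 were in germ-like cells at 0.913 and 0.961 CPM. No neighbours in the order of the 4 classes differed beyond counting error in either library, and the somatic classes held 2 to 19 UMIs each. The highest stage level was 2.32 CPM (1.33 to 3.77, 16 UMIs) in the WT Rhox5-high stage, against 0.854 CPM (9 UMIs) in KO. Both libraries were lower in Hist1h2aa-high than in recombination-like cells, with 0.537 against 1.34 CPM in WT (log2 ratio -1.32, -2.18 to -0.50) and 0.584 against 1.68 CPM in KO (-1.52, -2.28 to -0.79), each from under 100 UMIs. Low counts of this kind do not show that the enzymes were absent, since a 3-prime library catches only part of a cell's transcripts.

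Rara, which encodes RARα, was present in all 4 classes, and higher in the somatic ones. The level was 39.2 CPM in WT and 36.3 CPM in KO pregranulosa-like cells, 38.6 and 33.3 CPM in stroma-like cells, and 26.7 and 24.8 CPM in epithelium-like cells. Pregranulosa-like and stroma-like cells did not differ beyond counting error in either library. Endothelium-like cells had 37.8 CPM in WT (14 UMIs) and 28.7 CPM in KO (40 UMIs). Germ-like cells held 5.50 and 5.90 CPM, or 14.0% and 16.2% of the pregranulosa-like level, beside 1.21% and 0.691% for pregranulosa markers.

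Rarb, which encodes RARβ and is itself a classic target of retinoic acid, was low and mainly stromal. Stroma-like cells held 5.34 CPM in WT (4.00 to 6.98, 53 UMIs) and 4.59 CPM in KO (3.59 to 5.79, 72 UMIs). Epithelium-like cells held 1.90 and 1.21 CPM, germ-like cells 0.390 and 0.476 CPM, and pregranulosa-like cells only 2 and 1 UMIs. Within the stroma the group high in perivascular markers had 11 and 10.3 CPM, from 14 UMIs in each library, and cycling cells 4.75 and 6.28 CPM, a difference within counting error in both libraries (log2 ratio 1.22, -0.06 to 2.55, and 0.71, -0.40 to 1.79).

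To set these levels against the transcriptome, a gene was compared when the sides together held 100 UMIs or more, and was counted when its CPM differed by at least 2-fold. Between epithelium- and stroma-like cells, 4 of 6 of the genes with enough UMIs were past this limit in WT and 3 of 5 in KO, where 14.3% and 15.6% of all genes were. Between epithelium- and pregranulosa-like cells it was 3 of 4 and 3 of 5, beside 13.9% and 13.5% of all genes. Between stroma- and pregranulosa-like cells it was 4 of 6 and 4 of 5, beside 20.2% of all genes in each library. The shares of these few genes were thus above those of all genes in the comparisons among somatic classes. These shares cannot show that the pathway differs more than other genes, because the genes were chosen with earlier results of these data known. The minimum of 100 UMIs also left out genes of the set that were low on both sides. Between germ-like and all somatic cells, 4 of 8 genes were past the limit in both libraries. These were Aldh1a1, Aldh1a2, Rara and Rarb, all lower in germ-like cells. Of all genes, 57.7% in WT and 55.5% in KO were past it, so the share of the set was not higher. Crabp1 was lower in germ-like cells by a log2 ratio of -0.99 in WT (-1.10 to -0.87) but differed by only -0.06 in KO (-0.15 to 0.04).

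Clustering of germ-like cells, again without the 9 genes and the pathway lists, gave 5 stages and a mixed group. The mixed group (65 WT and 119 KO cells, 48.9% called doublets) was raised for 9 of 12 pregranulosa markers. It counts in the germ-like levels but in no stage. The first stages were a Rhox5-high stage with pluripotency and cell cycle genes (294 WT and 651 KO cells) and meiotic-entry-like cells with Stra8 (559 and 1576). The others were recombination-like cells with Prdm9 and Dmc1 (1646 and 2042), an unnamed Hist1h2aa-high stage (2243 and 3738) and advanced-prophase-like cells with Sohlh1 and Lhx8 (1983 and 2080). The last of these names rests on 3 of 10 markers (Sohlh1, Lhx8 and Uchl1), and the premeiotic markers Pou5f1, Kit and Ccnb1 were also raised there. Of the other markers of advanced prophase, Figla was raised in recombination-like, Syce3 in Hist1h2aa-high and Ooep in Rhox5-high cells. The earlier stages overlapped too. Rhox5-high cells were also raised for the entry markers Stra8, Rec8 and Zglp1. Meiotic-entry-like cells were also raised for premeiotic markers (Utf1, Rhox6, Rhox9 and Ifitm3) and recombination markers (Prdm9, Rad51ap2 and Ugt8a). Recombination-like cells were also raised for the entry markers Gm4969, Meioc and Tex15. The stage order is that of the marker genes and not a measured time.

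Both binding proteins were highest in the Rhox5-high stage. Crabp1 stood at 80.9 CPM in WT and 91.1 CPM in KO in the Rhox5-high stage, 44.5 and 44.1 CPM in meiotic-entry-like cells, and 7.01 to 13.3 CPM in the later stages of both libraries. In the Rhox5-high stage it thus reached 87.1% of the stroma-like level of WT and 132% of that of KO. A UMI of it was found in 21.4% of WT and 21.0% of KO cells of that stage after thinning. Crabp2 held 25.7 and 18.5 CPM there. It was lowest in recombination-like cells, with 0.543 and 0.610 CPM, and higher again in advanced-prophase-like cells, with 6.26 and 3.10 CPM.

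The receptors were also highest in the Rhox5-high stage. Rara held 13.2 CPM there in each library and 4.27 to 6.42 CPM in the 4 later stages. Rarb held 2.75 CPM in WT (19 UMIs) and 2.28 CPM in KO (24 UMIs), then 0.881 and 0.739 CPM in meiotic-entry-like cells and 0.107 to 0.324 CPM afterwards.

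Aldh1a2 had the opposite order. It stood in WT at 2.46 CPM in the Rhox5-high stage, 3.33 CPM in meiotic-entry-like, 5.03 CPM in recombination-like, 8.11 CPM in Hist1h2aa-high and 9.28 CPM in advanced-prophase-like cells. In KO the levels were 3.98, 3.51, 8.01, 9.92 and 12.9 CPM in the same stages. Both libraries had their highest level in advanced-prophase-like cells, at 4.25% and 5.83% of the epithelium-like level. Epithelium markers in those cells stood at a median of 0.317% and 0.893% of theirs. Over the 8 markers the values ran from 0% to 5.14% in WT and from 0% to 17.3% in KO, so Aldh1a2 lay within their range. The part of carried-over RNA was not tested. The WT step from Hist1h2aa-high to advanced-prophase-like cells was within counting error (log2 ratio 0.19, -0.03 to 0.42), and that in KO was not (0.38, 0.14 to 0.62). The median of all genes in that comparison was itself at 0.17 in WT and 0.19 in KO, so the WT step was that of the median gene. Aldh1a1 did not differ between neighbouring stages beyond counting error in either library.

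Aldh1a3 followed no order that the libraries shared. In WT it stood at 4.93 CPM in the Rhox5-high stage, 16.4 CPM in meiotic-entry-like, 1.59 CPM in recombination-like, 4.43 CPM in Hist1h2aa-high and 3.83 CPM in advanced-prophase-like cells. In KO the levels were 0.569, 1.02, 3.17, 2.31 and 3.98 CPM. The highest stage of WT was thus among the lowest of KO, and few cells carried these UMIs in either library.

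**Figure D4:**
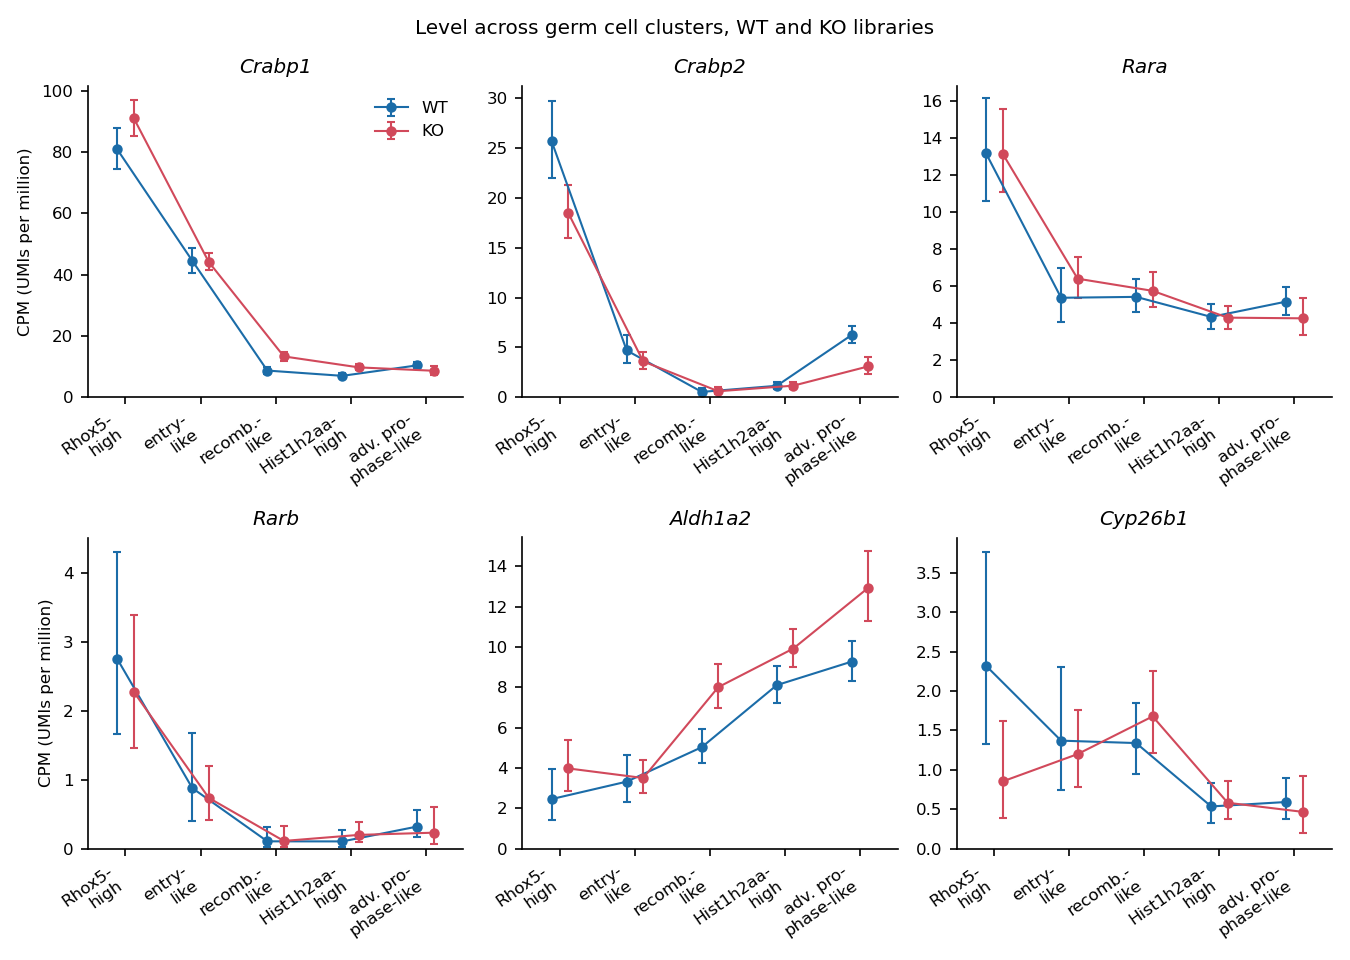
Level of 6 of the 9 genes in the 5 germ stages of each library, in CPM with 95% counting intervals. Crabp1, Crabp2, Rara and Rarb are highest in the Rhox5-high stage (Crabp1 at 80.9 CPM in WT and 91.1 CPM in KO), and Aldh1a2 in advanced-prophase-like cells (9.28 and 12.9 CPM).

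Past the 2-fold limit between meiotic-entry-like and Rhox5-high cells were 3 of 4 genes of the set with enough UMIs in WT and 3 of 4 in KO, beside 12.0% and 14.3% of all genes. Crabp2 was lower in meiotic-entry-like cells by a log2 ratio of -2.45 in WT (-2.94 to -1.98) and -2.36 in KO (-2.76 to -1.97), and Rara by -1.29 (-1.80 to -0.79) and -1.04 (-1.39 to -0.69). For Crabp1 the ratio was -0.86 in WT (-1.04 to -0.68) and -1.04 in KO (-1.18 to -0.91), where the median of all genes lay at -0.13. Aldh1a3 was the further gene past the limit in WT (1.74, 1.20 to 2.32). From meiotic-entry-like to recombination-like cells, 2 of 4 genes in WT and 3 of 4 in KO were past the limit, beside 10.2% and 8.16% of all genes, and Crabp1 was lower by -2.35 in WT (-2.58 to -2.12) and -1.73 in KO (-1.91 to -1.55). From recombination-like to Hist1h2aa-high cells it was 1 of 4 and 0 of 4, beside 7.60% and 7.41% of all genes. From Hist1h2aa-high to advanced-prophase-like cells it was Crabp2 alone, 1 of 5 in each library, higher by 2.44 in WT (1.96 to 2.94) and 1.41 in KO (0.83 to 1.99), beside 4.13% and 3.65% of all genes.

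The comparison of KO with WT within a class asked whether loss of GR came with a different level of these genes. In epithelium-like cells 0 of 5 genes with enough UMIs were past the 2-fold limit, where 0.31% of all genes were. Aldh1a2 had the same level in the libraries within counting error (218 CPM in WT and 222 CPM in KO, log2 ratio 0.02, -0.07 to 0.11), and Aldh1a1 was lower in KO (78.8 and 56.7 CPM, -0.48, -0.63 to -0.32). In stroma-like cells 1 of 7 was past the limit, Aldh1a3, beside 0.636% of all genes. Its levels of 9.77 CPM in WT and 2.04 CPM in KO gave a log2 ratio of -2.26 (-2.88 to -1.67). Without the highest cell of each library the levels were 7.47 and 1.79 CPM. In WT, 5 stroma-like cells with at least 5 UMIs of Aldh1a3 together held 69 UMIs, and 0 KO stroma-like cells reached 5. UMIs were thus not independent, as the interval takes them to be, and the ratio without all of these cells was not computed. Crabp1 (-0.43, -0.56 to -0.30) and Aldh1a2 (-0.50, -0.77 to -0.23) were lower in KO stroma-like cells by less than 2-fold. The Crabp1 ratio was -0.84 (-1.19 to -0.50) in the group high in perivascular markers and -0.25 (-0.49 to -0.01) in cycling cells.

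The pregranulosa-like class had 2 of 5 genes past the limit, beside 0.702% of all genes. Aldh1a3 was lower in KO, with 10.5 CPM in WT and 2.66 CPM in KO (-1.99, -2.48 to -1.51), and the lower level was found in the Folr1-high group (7.51 and 2.12 CPM) as in the Pax8-high group (90.8 and 25.2 CPM). In the Folr1-high group 1 WT cell held 31 of 59 UMIs, and without the highest cell of each library the levels were 3.57 and 2.03 CPM there and 69.3 and 19.2 CPM in the Pax8-high group. Over the whole class, 5 WT cells with at least 5 UMIs of Aldh1a3 together held 69 UMIs, and 0 KO cells reached 5. Its class interval therefore also takes as independent UMIs that were not. Crabp1 was higher in KO, with 1.98 and 4.40 CPM (1.15, 0.49 to 1.86), but 62 of its 86 KO UMIs came from a mixed group of 267 cells that carried germ markers and of which 82.4% were called doublets. Without the mixed groups the Crabp1 ratio was 0.29, and without called doublets 0.52. Aldh1a1 differed by 0.15 (0.08 to 0.22), Aldh1a2 by -0.06 (-0.18 to 0.05) and Rara by -0.11 (-0.28 to 0.06).

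Across all germ-like cells 0 of 8 genes differed by 2-fold, beside 1.15% of all genes. Aldh1a3 came closest, with 4.61 CPM in WT and 2.32 CPM in KO (-0.99, -1.20 to -0.78). Crabp1 was higher in KO over all germ-like cells (15.9 and 23.9 CPM, 0.59, 0.50 to 0.67). The KO library held 1576 meiotic-entry-like and 651 Rhox5-high cells among 10206 germ-like cells, where WT held 559 and 294 among 6790. The part of these stage shares in the Crabp1 difference was not tested. Within meiotic-entry-like cells the Crabp1 ratio was -0.01 (-0.18 to 0.15) and within the Rhox5-high stage 0.17 (0.02 to 0.32), whereas it was 0.61 (0.37 to 0.86) in recombination-like and 0.48 (0.25 to 0.71) in Hist1h2aa-high cells. In advanced-prophase-like cells it was -0.27 (-0.55 to 0.01), with 10.4 CPM in WT and 8.66 CPM in KO. Rara differed by 0.10 (-0.05 to 0.25), Rarb by 0.29 (-0.29 to 0.87) and Cyp26b1 by 0.07 (-0.31 to 0.46), all with intervals that include 0.

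By stage, 0 of 3 genes were past the limit in the Rhox5-high stage (0.398% of all genes), 1 of 5 in meiotic-entry-like cells (0.689%), 0 of 4 in recombination-like cells (0.547%), 0 of 5 in Hist1h2aa-high cells (0.637%) and 1 of 5 in advanced-prophase-like cells (0.706%). The gene in meiotic-entry-like cells was Aldh1a3, with 16.4 CPM from 18 cells in WT and 1.02 CPM from 12 cells in KO, a log2 ratio of -4.02 (-4.73 to -3.37). The interval takes UMIs as independent, which they were not, since 87 of the 168 WT UMIs came from 1 cell. Without the highest cell of each library the levels were 7.95 and 0.785 CPM. In recombination-like cells Aldh1a3 was instead higher in KO (1.59 and 3.17 CPM, 0.99, 0.45 to 1.55), from 28 WT and 31 KO cells. The highest cell held 12 of 44 UMIs in WT and 24 of 83 in KO, without which the levels were 1.16 and 2.25 CPM, and the ratio was 0.28 without called doublets.

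In advanced-prophase-like cells the gene past the limit was Crabp2, with 6.26 CPM in WT and 3.10 CPM in KO (-1.01, -1.47 to -0.58). The highest WT cell held 18 UMIs, and without the highest cell of each library the ratio was -0.98. Cells of this stage had a median of 17132 UMIs in WT and 6994 in KO, where Hist1h2aa-high cells had 16262 and 10971. The part of this gap in depth was not tested on its own. Over the alternatives, common limits on cells and thinning included, the Crabp2 ratio ran from -1.47 to -0.98.

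**Figure D5:**
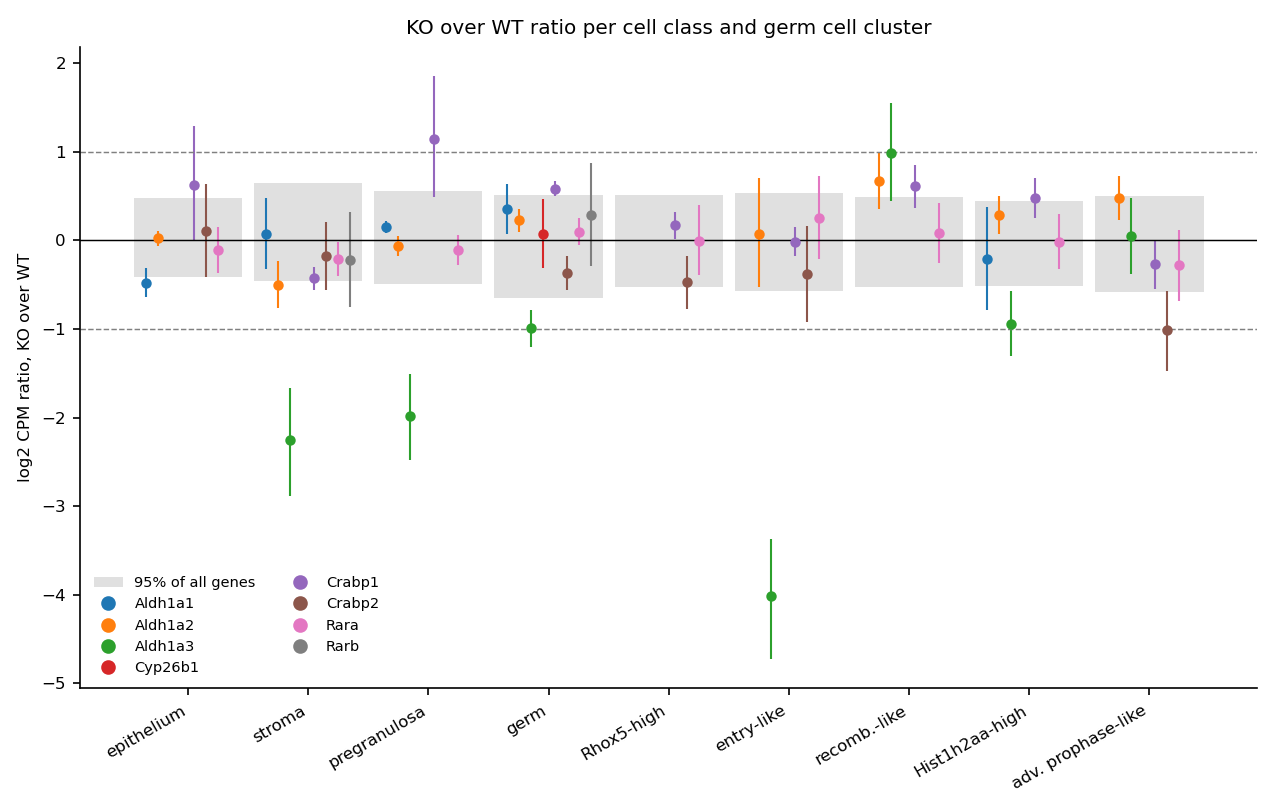
Log2 ratio of KO over WT for each gene with 100 or more UMIs in the libraries together, in the 4 main classes and the 5 germ stages, with 95% counting intervals, dashed lines at 2-fold and a grey band for the middle 95% of all genes compared. Aldh1a3 lies past the lower line in stroma-like (-2.26), pregranulosa-like (-1.99) and meiotic-entry-like cells (-4.02), Crabp2 in advanced-prophase-like cells (-1.01), and Crabp1 past the upper line in pregranulosa-like cells (1.15).

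The rest of the pathway was described by 34 further genes of retinol transport, retinol oxidation and reduction, other receptors and cofactors. Between germ-like and somatic cells 16 of 24 with enough UMIs were past 2-fold in WT, with 12 lower in germ-like cells, and 17 of 25 in KO, with 13 lower, beside 57.7% and 55.5% of all genes. Their median log2 ratio was -1.05 in WT and -1.25 in KO, beside 0.00 and -0.09 for all genes. Dhrs3, a reductase that returns retinaldehyde to retinol, was highest in pregranulosa-like cells (70.8 CPM in WT and 62.4 CPM in KO) and low in epithelium-like cells (8.16 and 11 CPM). Between these classes it went with Aldh1a1. Unlike Aldh1a1, it was lower in epithelium- than in stroma-like cells by at least 2-fold in both libraries. Fabp5, a fatty acid binding protein that also binds retinoic acid, had 178 and 182 CPM in epithelium-like cells and 20.5 CPM in pregranulosa-like cells of both libraries. Unlike Aldh1a2, it was higher in stroma- than in pregranulosa-like cells by at least 2-fold in both libraries. Stra6, a retinol uptake receptor, was low throughout, with at most 8.17 CPM in stroma-like cells. Between KO and WT, 16 to 23 of the 34 genes had enough UMIs in a class or stage, and 0 were past 2-fold in any. Of all genes 0.31% to 1.15% were past it, so a count of 0 is near the share of all genes.

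Among somatic classes, 4 of 20 of these genes in WT and 5 of 23 in KO were past 2-fold between epithelium- and stroma-like cells, beside 14.3% and 15.6% of all genes. It was 6 of 20 and 5 of 21 between epithelium- and pregranulosa-like cells, beside 13.9% and 13.5%, and 4 of 20 and 6 of 23 between stroma- and pregranulosa-like cells, beside 20.2% in each library. Between neighbouring germ stages it was 1 to 3 genes of 15 to 19, beside 3.65% to 14.3% of all genes. Nrip1, a corepressor of nuclear receptors, was higher in advanced-prophase-like than in Hist1h2aa-high cells (1.13 in WT and 1.00 in KO).

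A second list held 14 genes known to respond to retinoic acid in various tissues. Stroma-like cells differed from pregranulosa-like cells at 9 of 12 of them in each library, with 7 higher in stroma, beside 20.2% of all genes, and the median log2 ratio of the list was 1.35 in WT and 1.40 in KO, beside -0.04 and 0.02 for all genes. Meis2 and Hoxa5, homeobox genes, were among the higher ones. Meis2 held 148 CPM in WT and 119 CPM in KO stroma-like cells, against 9.67 and 9.87 CPM in pregranulosa-like cells. Hoxa5 held 13.4 and 6.96 CPM in stroma-like cells, against 0.238 CPM (WT) and 0 UMIs (KO) in pregranulosa-like cells. Rec8, a meiotic cohesin subunit, went the other way (3.43 and 2.55 CPM in stroma-like cells, 28.5 and 20.5 CPM in pregranulosa-like cells).

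Stra8, which was among the markers used to name stages, was highest in the Rhox5-high stage, with 1652 CPM in WT and 1544 CPM in KO, and stood at 925 and 1012 CPM in meiotic-entry-like cells. These were the stages with the highest levels of Crabp1 and the lowest of Aldh1a2. Between KO and WT the list had 1 of 11 genes past 2-fold in pregranulosa-like cells, beside 0.702% of all genes. It was Stra8 (19.4 and 41.8 CPM, 1.11, 0.90 to 1.32), where germ markers stood at 11.5% of their germ-like level in WT and 16.8% in KO. The share of carried-over germ RNA in that value was not tested. In advanced-prophase-like cells Stra8 (134 and 56.8 CPM, -1.24, -1.34 to -1.14) and Rec8 (5.96 and 2.75 CPM, -1.12, -1.60 to -0.66) were lower in KO, 2 of 7 genes, beside 0.706% of all genes. The median depth of these cells was 17132 UMIs in WT and 6994 in KO, and its part in these differences was not tested.

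Finally, genes with a pattern like that of each gene of the set were taken as the 3 with the highest correlation of log2(CPM + 1) over 22 profiles, 11 of each library, among 12306 genes with at least 500 UMIs. The profiles share libraries and depth, so the coefficients only describe. For Aldh1a1 these were Gm17660 (r = 0.97), Lrrn1 (0.97) and Irx3 (0.96), and for Aldh1a2 they were Ano1, Tceal3 and Aox3 (each 0.95). For Crabp1 they were Penk, Alpl and Cntfr (each 0.87), and for Crabp2 Fsd1 (0.91), Kcnip3 (0.89) and Chrd (0.86). Rara was most like Cfdp1 (0.97), Tmem11 (0.96) and Kank2 (0.95), and Rarb most like Col13a1 (0.89), Crispld1 (0.88) and Ppp1r14a (0.87). The sparse genes had weaker neighbours, RP24-308M10.2 (0.81), Kdm8 (0.79) and Mtus2 (0.78) for Aldh1a3, and Pdia5 (0.84), Gm12758 (0.82) and Kank3 (0.81) for Cyp26b1. Cyp26a1 had too few UMIs to be compared.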

How the data were processed

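The deposited values are whole-number UMI counts per gene and cell barcode with no normalization, which the authors made by Cell Ranger; per the file headers this was release 3.0.2. The submitters' processing notes also name Seurat 3.2.3 and the build mm10. Library preparation used 10x 3-prime v3 chemistry, and how reads matching several genes were treated is not given in the sources used here. Cells were kept by the study's limits, which differ between libraries: 1500 to 6500 genes and 5500 to 40000 UMIs for WT, 1200 to 5500 genes and 3000 to 30000 UMIs for KO, and under 10% mitochondrial UMIs for both. These limits, and a lower depth in KO, affect shares of cells with a UMI, so shares are given after thinning each cell to 3000 UMIs, which left out 0 cells.

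Counts were scaled to 10000 per cell, transformed to ln(value + 1), and clustered on 2000 variable genes, 30 principal components and 20 neighbours by the Leiden method at resolution 0.5 (scanpy 1.11.5, Python 3.11.15). The 9 genes and both pathway lists were left out of this step. No annotation of cells was used. Classes were named from listed markers. Groups within classes came from a further clustering whose settings were chosen after seeing the data, and they were called by leading genes where markers were too few. Doublets were kept in the main values and called with Scrublet at an expected rate of 8% for an alternative.

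UMIs were summed per class and library and divided by all UMIs of the class (CPM), with exact Poisson intervals. Ratios carry exact conditional intervals and shares Clopper-Pearson intervals, and limits for a count of 0 use 3 counts. PCR and capture error are not covered. Genes needed at least 100 UMIs over both sides, and past the limit means at least 2-fold. The same UMI minimum, set on all cells, was kept under the alternatives that drop or thin cells. In simulated stroma counts with 200 of 10700 genes changed 4-fold, 186 were called in the right direction and 0 of the unchanged genes were called. These were Poisson counts from the pooled stroma sums, with no variation between libraries or cells. They therefore check the counting only and cannot show how often such variation leads to a call. The study compared genotypes with a test over cells, which was not used because cells are not replicates. Coordinates are from GENCODE M21 on GRCm38 and promoters from RefSeq on GRCm38.p6.

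The genes and lists were chosen with earlier results of these data known. Named were the 9 genes; from the lists, genes past the limit, at most the 6 with the largest ratio per comparison; the 3 genes most alike in pattern; Nr3c1; and markers. Stra6 levels and the Stra8 stage levels were named after they had been seen. Alternatives were common limits on cells, removal of doublets or of cells with another class's markers, other denominators, per-cell means, thinning, other clusterings, other UMI minimums and folds, median-of-ratios scaling and, added after seeing the data, removal of mixed groups, of the highest cell or of shared barcodes. Values of some genes and cell groups are not reported here.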

Additional observations from a re-analysis of the deposited data

Results flagged for a closer look

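For 4 genes the difference between KO and WT had opposite signs in different cells, with intervals that did not include 0. The difference between the cell groups was not tested in any of them, since each genotype had 1 library. Aldh1a1 was higher in KO germ-like cells (log2 ratio 0.36, and 0.10 to 0.52 over the alternatives) and lower in KO epithelium-like cells (-0.48). Its germ-like level was 0.787% (WT) and 0.908% (KO) of the pregranulosa-like one, where pregranulosa markers stood at 1.21% and 0.691%. The germ-like class included a mixed group raised for pregranulosa markers (65 WT and 119 KO cells, 29.2% and 59.7% called doublets). Aldh1a2 was higher in KO germ-like cells (0.23) and lower in KO stroma-like cells (-0.50). Crabp1 was higher in KO pregranulosa-like cells (1.15) and lower in KO stroma-like cells (-0.43), and the first of these values fell to 0.29 without mixed groups of cells. Aldh1a3 was higher in KO recombination-like cells (0.99, and 0.28 to 1.39 over the alternatives) and lower in KO meiotic-entry-like cells (-4.02), where 1 WT cell held 87 of 168 UMIs.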

How the results depend on the processing

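No paired analysis was possible because each genotype has 1 library. Of 1736 ratios of the 9 genes under the alternatives, 1682 stayed on the same side of the limit in use, 10 were no longer past it, 44 were newly past it and 0 changed the sign of a called value. Only ratios with at least 100 UMIs were followed. The 128 ratios under a minimum of 30 UMIs, and the 128 under 1 UMI, could therefore not change. Of the newly past ratios, 15 came from lowering the limit to 1.5-fold and not from a changed ratio. Counts over all classes or stage steps moved most with the UMI minimum and the fold. Of the 9 genes, 3 ratios of KO over WT in classes were past the limit, and 5 with common limits on cells, 7 with a minimum of 1 UMI and 6 at 1.5-fold. In stages there were 2, and 8 with a minimum of 1 UMI, 6 at 1.5-fold and 1 without the cell with most UMIs of the gene. Between classes there were 15 in WT and 14 in KO, and 23 in each with a minimum of 1 UMI. Between stages there were 7 in each, and 15 in WT and 13 in KO with that minimum. For the pathway lists, the KO over WT counts were 1 in classes (2 with a minimum of 30 UMIs, 20 with 1 UMI, 12 at 1.5-fold) and 2 in stages (33 with 1 UMI, 5 at 1.5-fold). Between classes they were 56 in WT and 57 in KO, and 88 in each with 1 UMI. Between stages they were 16 in WT (49 with 1 UMI, 30 at 1.5-fold) and 15 in KO (24 with 30 UMIs, 55 with 1 UMI, 34 at 1.5-fold). These counts grow because lower levels or smaller folds are admitted.

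Among other single values that crossed the limit were the KO over WT ratio of Crabp1 in epithelium-like cells (1.20 with common limits), that of Aldh1a1 in stroma-like cells (1.21 without mixed groups) and that of Aldh1a3 in all germ-like cells (-1.02 with common limits and -1.15 without called doublets). Rara in meiotic-entry-like over Rhox5-high cells was under the limit as a mean over cells (-0.94 in WT and -0.98 in KO). Over the alternatives, the ratio of germ-like over somatic cells in WT ran from 0.10 to 2.50 for Cyp26b1 and from -1.61 to -0.97 for Crabp1. That of Crabp1 in KO ran from 0.33 to 1.77 for epithelium- over pregranulosa-like and from -1.06 to -0.92 for meiotic-entry-like over Rhox5-high cells. The KO over WT ratio of Aldh1a3 in recombination-like cells ran from 0.28 to 1.39. The cause was not tested. Rara was highest in stroma-like rather than pregranulosa-like cells in both libraries, and Aldh1a3 in WT likewise, when clustering used resolution 1.0. Stages were not derived again under the other clusterings, so those alternatives were not run for them. Depth limits the breakdown genes and Rarb most, at 28 to 156 UMIs per library.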
